A study of Mus musculus with 6 samples.

Results

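Calcium enters, leaves and is released inside brain cells through many membrane proteins. Some of their genes, such as Orai1 to Orai3, are outside the set described here. That set holds 42 of the 22584 genes in the count table, for channels, pumps, exchangers and auxiliary subunits. They were taken by gene symbol: the pore (Cacna1), beta (Cacnb), alpha2delta (Cacna2d) and gamma (Cacng) genes of the voltage-gated calcium channels, the ryanodine receptors Ryr1 to Ryr3, the inositol trisphosphate (IP3) receptors Itpr1 to Itpr3, the calcium pumps Atp2a and Atp2b, and the sodium-calcium exchangers Slc8a1 to Slc8a3. All 42 genes with a matching symbol reached the minimum of 10 counts summed over the 6 libraries. The rule uses names and abundance, and the set was proposed with earlier results of these data known.

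RNA from wild-type (WT) mouse brain was extracted in parallel with a kit that recovers DNA, RNA and protein from 1 lysate (AllPrep DNA/RNA/Protein Mini Kit, QIAGEN; 3 libraries) or with TRIzol Reagent (Invitrogen), an acid phenol extraction, as the control (3 libraries). Both sets of libraries were made by T7-based in vitro transcription amplification and sequenced as 150-base read pairs. The labels give no age, sex, strain or brain region, and they do not say whether the 3 libraries of a method came from separate animals, so the p-values below measure only the spread between these libraries. Totals were 38552252 to 50937858 counts in the AllPrep libraries and 36395330 to 44995120 counts in the TRIzol libraries. Levels are in CPM, counts per 1000000 counts after scaling between libraries, and fold changes are AllPrep over TRIzol.

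Neuron markers were abundant in every library, with 8913 to 9696 summed CPM in AllPrep and 9286 to 10077 in TRIzol over 10 genes. Markers of other tissue parts moved between libraries. All 10 choroid plexus markers were higher in AllPrep, with summed levels of 641 to 1293 CPM against 18.5 to 27.1 CPM in TRIzol. Striatal markers spanned 439 to 1322 CPM in AllPrep and 188 to 832 CPM in TRIzol, and thalamic markers 216 to 414 CPM in AllPrep and 176 to 1017 CPM in TRIzol, the highest value being TRIzol replicate 3. Oligodendrocyte markers summed to 3263 to 5777 CPM in AllPrep, lowest in replicate 3, and to 5965 to 7034 CPM in TRIzol. No listed marker was at 0 in all 6 libraries, and the cerebellar genes Pcp2 and Gabra6 stayed at or below 0.31 CPM in every library. In bulk tissue, fewer cells of a type and less RNA per cell cannot be told apart, and the part these marker differences have in the results below was not tested.

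Voltage-gated calcium channels open on depolarization and let calcium into neurons, where it triggers transmitter release, shapes firing and reaches the nucleus. A pore subunit forms the channel, a cytosolic beta subunit and an extracellular alpha2delta subunit help it to the membrane, and most brain gamma subunits instead serve AMPA-type glutamate receptors. Ryanodine and IP3 receptors release calcium from the endoplasmic reticulum, the SERCA pumps (Atp2a) return it there, and the plasma membrane pumps (PMCA, Atp2b) and sodium-calcium exchangers (NCX, Slc8a) remove it from the cell.

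Most of these transcripts stood slightly higher in AllPrep, and for 2 genes the difference passed the test. Slc8a1, an exchanger best known from the heart, rose 1.67-fold and Cacna1h, a T-type pore, rose 1.30-fold. Together the 42 genes took 0.772%, 0.838% and 0.815% of all counts in the AllPrep libraries, against 0.677%, 0.705% and 0.698% in the TRIzol libraries, and the groups did not overlap. Of the 41 genes tested, 35 had a positive and 6 a negative fitted log2 fold change, with a median of 0.19, where the median over all tested genes was -0.01. The 42nd, Cacng1, a skeletal muscle gamma subunit, had 7, 8 and 8 counts in AllPrep and 2, 3 and 2 counts in TRIzol, too few for the test.

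The 2 calls were 4.88% of the 41 tested members. By the same rule (edgeR quasi-likelihood test, adjusted p below 0.05 over all tested genes), 621 of 16325 genes (3.8%) were called in either direction and 412 (2.52%) were higher in AllPrep, so the members' share was close to that of all genes. Counting genes by position alone, 13 of 41 members (31.7%) had all 3 AllPrep libraries above all 3 TRIzol libraries, against 16% of all tested genes. Cacna1f was the 1 member with all AllPrep libraries below all TRIzol libraries, an order found in 17.1% of all tested genes. With DESeq2 the number of members higher in AllPrep was 9 (21.95%), against 7.81% of all genes. The 7 added by DESeq2 were Atp2b4, Cacna1b, Cacna1c, Cacna2d1, Cacng4, Cacng8 and Ryr2.

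**Figure D1:**
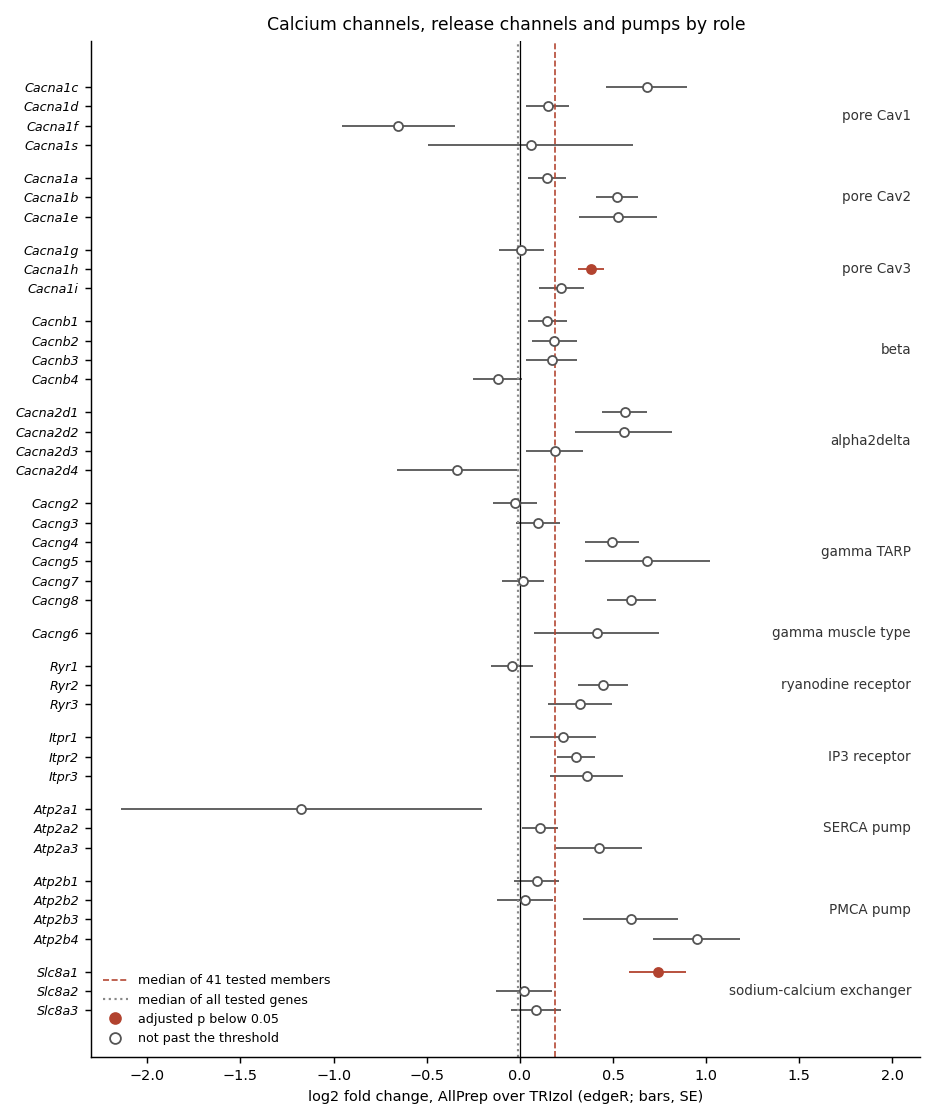
Fitted log2 fold change (AllPrep over TRIzol, x axis) of the 41 tested genes, grouped by role, with bars of 1 standard error; filled points passed adjusted p below 0.05 in edgeR. Most points lie right of 0, and the 2 filled points are Slc8a1 at 0.74 and Cacna1h at 0.38.

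Transcript length ran alongside this shift. The members' longest annotated transcripts had a median of 6.62 kb, against 3.31 kb over all tested genes. Among tested genes with transcripts of 8 kb and longer, the median log2 fold change was 0.32 for the 17 members and 0.29 for all 925 genes. In that length class 9 of 17 members (52.9%) and 55.5% of all genes had every AllPrep library above every TRIzol library. Both called members, Slc8a1 and Cacna1h, were in it, giving 11.8% called, against 17.1% of all genes of that length. With DESeq2, 6 of the 17 members (35.3%) were higher in AllPrep, against 38.4% of all genes of that length.

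Between 4 and 8 kb the median log2 fold change was 0.10 for 14 members and 0.07 for all genes. For 2 to 4 kb it was 0.16 for 8 members and -0.04 for all genes. Below 2 kb, where all genes had a median of -0.13, there were 2 tested members, the gamma genes Cacng6 (0.41) and Cacng8 (0.60). DESeq2 called 1 member higher in each of these 3 classes. The shares were 7.14% at 4 to 8 kb, 12.5% at 2 to 4 kb and 50% below 2 kb. For all genes they were 11.8%, 3.76% and 1.95%. Across genes, length and log2 fold change had Pearson's r = 0.20 and Spearman's rho = 0.19 over the 41 members, and r = 0.20 and rho = 0.31 over 16219 genes with a length. Genes share libraries and are not independent replicates, so these coefficients carry no p.

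When smooth trends on length and GC content were taken out of each library before the edgeR fit, no member was called (0 of 41). At an unadjusted p below 0.05 there were 8 members (19.5%), against 23.1% of all tested genes. The members then split into 21 positive and 20 negative, with a median log2 fold change of 0.01, where all genes had -0.05. In that fit 150 of the 401 called genes were higher in AllPrep (37.4%), against 66.3% without the step, and library size scaling alone gave 52.9%. The length trend and a difference of the long calcium genes themselves cannot be told apart by this step.

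**Figure D2:**
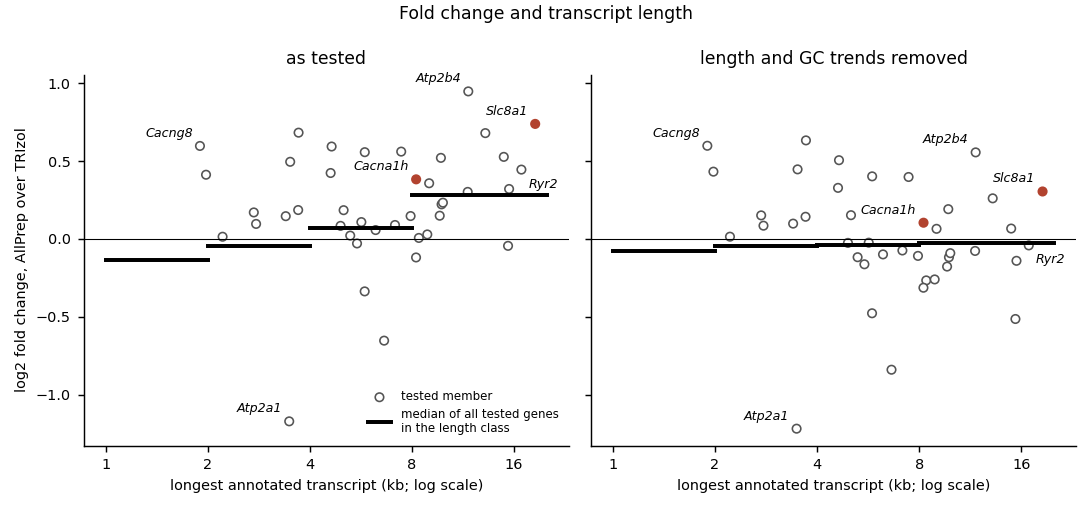
Log2 fold change (AllPrep over TRIzol, y axis) of each tested member against the length of its longest annotated transcript in kb (log axis), as fitted (left) and with length and GC trends removed (right); bars mark the median of all tested genes in 4 length classes, the first holding every length under 2 kb, and filled points are Slc8a1 and Cacna1h, the 2 members called without the step. On the left the medians climb to 0.29 for transcripts of 8 kb and longer; on the right they stay near 0 and no member is called.

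The pore genes showed a called difference in the T-type family, channels that open near the resting potential and support burst firing. Cacna1h had 80.0, 79.6 and 85.6 CPM in AllPrep, against 61.0, 66.0 and 61.0 CPM in TRIzol. Every AllPrep library was above every TRIzol library, and the replicates lay close together. Its log2 fold change was 0.38 ± 0.07 (SE, n = 3 each; edgeR adjusted p = 0.036). Leaving out any 1 library kept the value between 0.35 and 0.42 but lost the call, with adjusted p of 0.071 to 0.104, and so did the removal of length and GC trends (0.10, adjusted p = 0.41). Tpsg1, a tryptase gene on the opposite strand whose exons overlap Cacna1h, had 1 to 2 counts in AllPrep and 2 to 4 in TRIzol.

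The other T-type genes showed no such separation. Cacna1i, the most abundant of the 3 in CPM, had 137, 143 and 118 CPM in AllPrep and 113, 130 and 98.5 CPM in TRIzol, and the groups overlapped (log2 fold change 0.22 ± 0.12, adjusted p = 0.29). With length and GC trends removed its sign turned (-0.12). Cacna1g, the main T-type pore of thalamic relay neurons, had 107, 103 and 99.0 CPM in AllPrep and 84.4, 105 and 118 CPM in TRIzol, a log2 fold change of 0.01 (adjusted p = 0.978), and -0.27 with the trends removed. The lowest and highest Cacna1g levels were both in TRIzol, in the libraries with the lowest and highest summed thalamic markers.

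The Cav2 pores supply the calcium that releases transmitter at presynaptic terminals. Cacna1e, the R-type pore and the most abundant pore gene, had 350, 374 and 578 CPM in AllPrep and 341, 243 and 320 CPM in TRIzol. AllPrep replicate 3 stood apart, and the groups did not overlap. The log2 fold change was 0.53 ± 0.21 (adjusted p = 0.167), 0.27 without AllPrep replicate 3 and 0.07 with length and GC trends removed. Cacna1b, the N-type pore, had 156, 157 and 199 CPM in AllPrep and 108, 125 and 123.2 CPM in TRIzol without overlap, and missed the threshold by little (0.52 ± 0.11, adjusted p = 0.052). With the trends removed it was 0.19 (adjusted p = 0.257). Cacna1a, the P/Q-type pore, had 114, 122 and 118 CPM in AllPrep and 90.6, 116 and 112 CPM in TRIzol, which overlapped (0.15, adjusted p = 0.40; -0.11 with the trends removed).

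Cav1 (L-type) pores couple depolarization to gene expression in neurons and to contraction in muscle. Cacna1c, the main L-type pore of brain, had 125, 132 and 173 CPM in AllPrep and 65.2, 85.3 and 118 CPM in TRIzol. All AllPrep libraries were above all TRIzol libraries, yet the spread within each group was wide, and the log2 fold change of 0.68 ± 0.22 did not pass (edgeR adjusted p = 0.108) and was 0.26 with length and GC trends removed. Cacna1d, a second neuronal L-type pore, differed less, with 58.0, 63.7 and 75.1 CPM in AllPrep and 64.4, 59.8 and 53.3 CPM in TRIzol (0.15, adjusted p = 0.448; -0.18 with the trends removed). Cacna1f, known from photoreceptors, stayed at 0.57 to 0.69 CPM in AllPrep and 0.79 to 1.33 CPM in TRIzol, and the skeletal muscle pore Cacna1s at 0.46 to 0.90 CPM in AllPrep and 0.22 to 1.02 CPM in TRIzol. Photoreceptor markers (7 matched) summed to at most 2.96 CPM in AllPrep and 3.26 CPM in TRIzol.

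Genes are set against each other here per kb of transcript. This scale takes the longest annotated transcript as the one expressed and reads as spread evenly along it, which was not tested. On it the 10 pore genes summed to 115 ± 12.5 CPM per kb in AllPrep and 90.4 ± 4.16 in TRIzol (SD, n = 3 each). Cacna1e made up 22.1%, 22.8% and 29.9% of that sum in AllPrep and 26.5%, 17.9% and 22.7% in TRIzol. The shares overlapped between methods. Summed Cav1 and Cav2 levels were 1.36 and 1.34 times as high in AllPrep, and summed Cav3 levels 1.14 times, values for which no test was run. The length and GC trends were not removed from any sum or share per kb given here.

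Auxiliary subunits of the channel complex held no gene past the threshold. Cacna2d1, the alpha2delta subunit that binds gabapentin, had 290, 322 and 403 CPM in AllPrep, against 225, 224 and 238 CPM in TRIzol. The groups were clearly apart, and the log2 fold change of 0.56 ± 0.12 came just short of the threshold (edgeR adjusted p = 0.051). It remained positive at 0.40 with length and GC trends removed (adjusted p = 0.107) and at 0.42 without AllPrep replicate 3.

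Cacna2d2, a second gabapentin-binding subunit, had 132, 89.6 and 62.3 CPM in AllPrep and 61.7, 77.2 and 54.1 CPM in TRIzol. Its values followed no clear split (0.56, adjusted p = 0.225), and without AllPrep replicate 1 the log2 fold change was 0.24. Cacna2d3 and Cacna2d4 had log2 fold changes of 0.19 and -0.34 with overlapping groups. Added per kb, the 4 alpha2delta genes reached 96.0, 94.4 and 92.1 CPM per kb in AllPrep and 64.9, 70.6 and 76.3 in TRIzol, a ratio of 1.33. Although the sum differed little among the AllPrep libraries, its makeup did: Cacna2d1 held 40.6%, 45.9% and 58.9% of it there, and 46.7%, 42.7% and 42.0% in TRIzol.

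All 4 beta genes overlapped between methods. Cacnb4, the most abundant beta gene in CPM, had 248, 268 and 192 CPM in AllPrep and 274, 231 and 263 CPM in TRIzol (log2 fold change -0.12 ± 0.13, adjusted p = 0.604), and without AllPrep replicate 3 its value was 0.01. Cacnb2 had 61.4, 65.4 and 62.6 CPM in AllPrep and 45.7, 56.9 and 63.9 CPM in TRIzol (0.19 ± 0.12, adjusted p = 0.364). The AllPrep values were almost equal and lay at the upper end of the TRIzol range. Cacnb1 and Cacnb3 had log2 fold changes of 0.15 and 0.17. On the per-kb scale Cacnb3 led the family, at 75.3 CPM per kb in AllPrep and 66.9 in TRIzol.

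Among the gamma genes, 6 encode TARPs, auxiliary subunits of AMPA receptors. Cacng5 had the largest fold difference of these, with 27.6, 25.1 and 19.98 CPM in AllPrep and 9.0, 12.0 and 24.1 CPM in TRIzol (0.68 ± 0.33, adjusted p = 0.246). TRIzol replicate 3, the library with the highest thalamic and hippocampal and the lowest striatal marker sums, was at the AllPrep level. Without it the log2 fold change was 1.21 and passed the test (edgeR adjusted p = 0.047). In that fit 137 of all 16535 tested genes were called higher and 68 lower. Leaving out any other library gave 0.42 to 0.81 (edgeR adjusted p of 0.299 to 0.447). With length and GC trends removed and all libraries kept, the value was 0.63 (edgeR adjusted p = 0.291).

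Cacng8, a TARP prominent in hippocampus, had 40.8, 39.1 and 54.4 CPM in AllPrep and 27.7, 30.1 and 30.9 CPM in TRIzol, with no overlap (0.60 ± 0.13, adjusted p = 0.053). Its longest annotated transcript is short (1.90 kb), and with the length and GC trends removed on that length the value stayed at 0.60 (adjusted p = 0.076). Hippocampal marker sums overlapped, at 256 to 332 CPM in AllPrep and 154 to 403 CPM in TRIzol. Cacng4 had 38.1, 36.2 and 26.9 CPM in AllPrep and 26.6, 21.9 and 23.2 CPM in TRIzol (0.50, adjusted p = 0.089), again without overlap. Cacng7, the most abundant gamma gene, had 92.6, 115 and 89.0 CPM in AllPrep and 92.3, 95.04 and 106 CPM in TRIzol (0.01 ± 0.11, adjusted p = 0.949), and its sign turned with library size scaling (-0.02).

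Cacng2 (stargazin) and Cacng3 had log2 fold changes of -0.03 and 0.10. The muscle subunit Cacng6 was near the limit of detection, with 0.57, 1.195 and 1.10 CPM in AllPrep and 0.68, 0.69 and 0.77 CPM in TRIzol (0.41 ± 0.34, adjusted p = 0.475). Skeletal muscle markers summed to 8.71 to 10.8 CPM in AllPrep and 9.52 to 12.3 CPM in TRIzol.

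**Figure D3:**
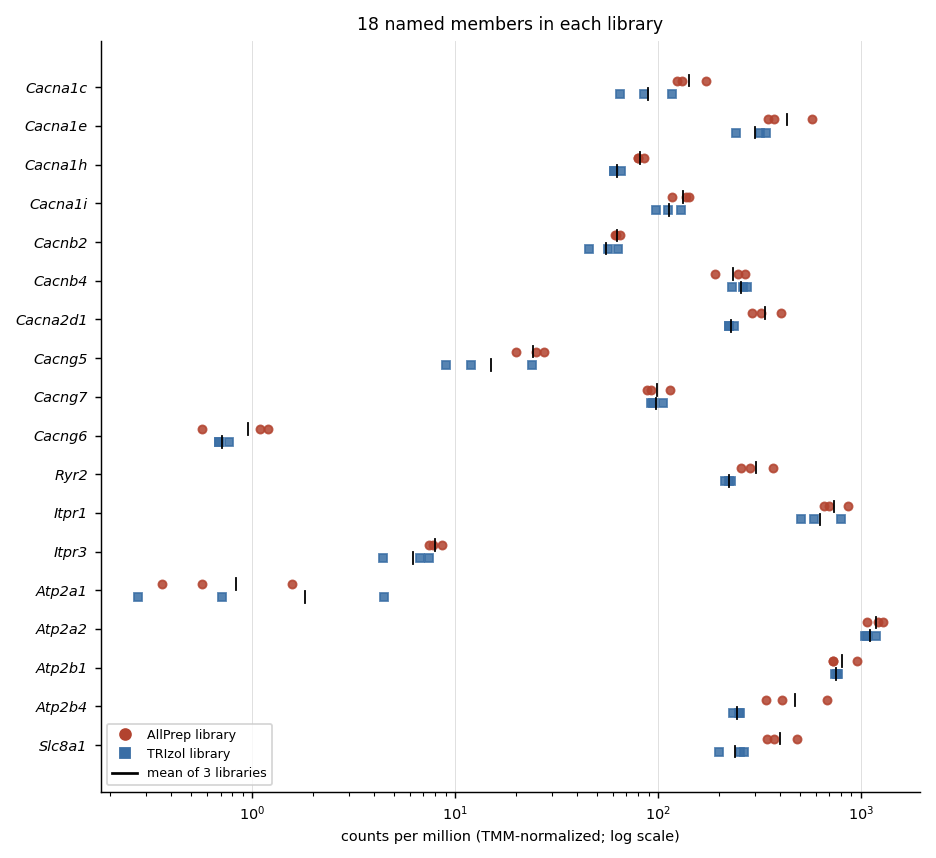
CPM of 18 members in each library (x axis, log scale), AllPrep drawn above TRIzol, with bars at the group means: the called members and, for each role, the most abundant member and the one with the largest fold difference. Slc8a1 and Cacna1h separate fully, whereas Atp2a1 is spread by a single TRIzol library at 4.47 CPM.

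Release channels of the endoplasmic reticulum held no gene past the threshold. Itpr1, the main neuronal IP3 receptor, made up 95.1% to 96.1% of IP3 receptor CPM per kb in AllPrep and 94.2% to 96.5% in TRIzol. It had 697, 869 and 661 CPM in AllPrep and 587, 796 and 511 CPM in TRIzol, overlapping widely (0.23 ± 0.18, adjusted p = 0.445), and -0.09 with length and GC trends removed. Purkinje cells are its best known site, and the cerebellar genes Pcp2 and Gabra6 were near 0 in these libraries.

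Itpr2, an IP3 receptor of astrocytes, was low and even, with 30.4, 30.8 and 30.5 CPM in AllPrep and 21.6, 25.3 and 27.5 CPM in TRIzol. The groups did not overlap, and the difference was not past the threshold (0.30 ± 0.10, edgeR adjusted p = 0.118). With length and GC trends removed its sign turned (-0.077). Astrocyte markers summed to 4912 to 5345 CPM in AllPrep and 4209 to 4788 CPM in TRIzol, a sum carried mostly by Slc1a2. Of the 8 astrocyte markers 1 (Slc1a3) was called higher, 4 had negative log2 fold changes and the median was 0.01; Aldh1l1, Aldoc and S100b were lower in every AllPrep library than in any TRIzol library. Itpr3 had 7.81, 8.68 and 7.44 CPM in AllPrep and 4.43, 6.77 and 7.43 CPM in TRIzol (0.36 ± 0.20, adjusted p = 0.294).

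Ryr2, the ryanodine receptor of heart and the main one of brain, had 258, 283 and 372 CPM in AllPrep and 230, 215 and 225 CPM in TRIzol. All AllPrep values were higher, with replicate 3 well above the other two (0.45 ± 0.13, adjusted p = 0.095). Without that library the log2 fold change was 0.28, and with length and GC trends removed it was -0.04. Ryr3 had 78.6, 79.0 and 86.0 CPM in AllPrep and 79.4, 47.4 and 68.2 CPM in TRIzol (0.32, adjusted p = 0.281). The value was 0.14 without TRIzol replicate 2 and -0.14 with length and GC trends removed. Of ryanodine receptor CPM per kb, Ryr2 made up 70.4% to 76.6% in AllPrep and 67.6% to 73.8% in TRIzol, and Ryr3 19.3% to 23.3% in AllPrep and 17.7% to 25.4% in TRIzol. Ryr1, the skeletal muscle receptor, had 18.1 to 22.9 CPM in AllPrep and 19.6 to 22.6 CPM in TRIzol (-0.04, adjusted p = 0.835).

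Pumps and exchangers held the most abundant transcripts of the set. The 3 highest of the 42 genes by CPM per kb were all calcium pumps. Atp2a2, the general SERCA pump, led with 210 CPM per kb in AllPrep and 195 in TRIzol, followed by Atp2b1 at 113 in AllPrep and 106 in TRIzol and Atp2b2 at 87.6 in AllPrep and 85.9 in TRIzol. None of these 3 passed the test.

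Promoter windows of 4 genes are shown to set the exchanger and the plasma membrane pump with the largest fold differences beside the most abundant gene per kb of each family. Of the 4 genes, only Slc8a1 was called. The windows are RefSeq sequence on GRCm38.p6, 250 bases before to 50 after the transcription start, in the direction of the gene. Capitals mark the GC box GGGCGG on either strand; overlapping copies were counted separately. Slc8a1 is chr17:81738338-81738637 on the minus strand, Slc8a2 chr7:16129576-16129875 on the plus strand, Atp2b4 chr1:133753698-133753997 on the minus strand and Atp2b1 chr10:98914392-98914691 on the plus strand, the last being 1 of 2 windows listed for that gene.
Slc8a1: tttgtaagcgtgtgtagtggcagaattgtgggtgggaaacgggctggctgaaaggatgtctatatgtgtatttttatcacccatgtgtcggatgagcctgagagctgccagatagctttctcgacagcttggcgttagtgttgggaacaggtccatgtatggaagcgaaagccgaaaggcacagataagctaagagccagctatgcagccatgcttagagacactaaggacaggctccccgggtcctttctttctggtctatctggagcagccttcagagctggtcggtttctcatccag
Slc8a2: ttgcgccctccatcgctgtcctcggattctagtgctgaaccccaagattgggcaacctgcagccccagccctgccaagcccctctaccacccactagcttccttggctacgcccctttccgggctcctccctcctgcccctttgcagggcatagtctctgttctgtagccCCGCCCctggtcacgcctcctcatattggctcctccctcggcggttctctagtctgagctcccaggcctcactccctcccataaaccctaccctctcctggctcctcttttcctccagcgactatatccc
Atp2b4: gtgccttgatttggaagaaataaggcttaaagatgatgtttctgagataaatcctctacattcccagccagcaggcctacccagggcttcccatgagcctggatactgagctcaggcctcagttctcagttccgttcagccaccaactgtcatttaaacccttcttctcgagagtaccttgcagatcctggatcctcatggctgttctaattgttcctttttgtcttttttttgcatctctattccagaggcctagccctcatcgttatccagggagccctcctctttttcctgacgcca
Atp2b1: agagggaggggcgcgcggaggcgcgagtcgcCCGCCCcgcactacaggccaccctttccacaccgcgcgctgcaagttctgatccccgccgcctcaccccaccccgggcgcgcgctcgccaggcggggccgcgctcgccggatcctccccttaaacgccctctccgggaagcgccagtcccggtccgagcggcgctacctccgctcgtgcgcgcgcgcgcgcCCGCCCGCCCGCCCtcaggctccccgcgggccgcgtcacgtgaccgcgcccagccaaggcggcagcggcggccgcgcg
No GC box was found in the Slc8a1 and Atp2b4 windows (GC content 50.7% and 47.7%), against 1 in Slc8a2 and 4 in Atp2b1 (61.3% and 79.3%). Other members did not share this contrast. The Cacna2d1 and Cacna1b windows had 7 and 3 GC boxes, with log2 fold changes of 0.56 and 0.52. Those of Cacng2 and Cacng3 had 0, with log2 fold changes of -0.03 and 0.10. The called Cacna1h had no window listed. A relation between GC boxes and fold difference was not tested. Of the 42 members, 32 had 44 windows in the RefSeq table. A GC box stood in 25 of the 44 (56.8%) and in 35.7% of all 32851 windows. TATAAA was in 2.27% of the members' windows and 13.6% of all, TGACG in 18.2% and 20.8%, each searched on both strands. The median GC content was 62.2% in the members' windows and 52.7% in all windows. These matches describe the letters and are no evidence of binding.

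Atp2b4, a plasma membrane pump, had the largest fitted fold difference of any member with a positive one. It had 341, 409 and 679 CPM in AllPrep, against 254, 253 and 234 CPM in TRIzol. The TRIzol values were tight, and the AllPrep values were spread by replicate 3. The log2 fold change was 0.95 ± 0.23 but did not pass (edgeR adjusted p = 0.063; DESeq2 adjusted p = 0.000577). Without AllPrep replicate 3 it was 0.60 (edgeR adjusted p = 0.069), and with length and GC trends removed 0.56 (adjusted p = 0.181).

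Its weight within the family differed accordingly: Atp2b4 was 11.3%, 11.4% and 21.4% of PMCA CPM per kb in AllPrep and 9.53%, 8.79% and 8.30% in TRIzol. These shares were taken with the length and GC trends left in. Atp2b1, found in most cells, had 729, 964 and 730 CPM in AllPrep and 762, 744 and 770 CPM in TRIzol. The groups overlapped (0.09 ± 0.12, adjusted p = 0.671), and the value was -0.06 without AllPrep replicate 2 and -0.07 with length and GC trends removed. Atp2b2, the pump of cochlear hair cells and many neurons, had a log2 fold change of 0.03 (adjusted p = 0.923), and -0.26 with the trends removed.

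Atp2b3, a neuronal pump, had 157, 153 and 197 CPM in AllPrep and 66.8, 138 and 131 CPM in TRIzol. The AllPrep libraries were all higher, and TRIzol replicate 1 lay far under the other two (0.59 ± 0.26, adjusted p = 0.195). Leaving that library out gave 0.33.

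Atp2a2 made up 98.2% to 98.8% of SERCA CPM per kb in AllPrep and 98.2% to 99.2% in TRIzol. It had 1212, 1290 and 1079 CPM in AllPrep and 1053, 1072 and 1196 CPM in TRIzol (0.11 ± 0.10, adjusted p = 0.52; -0.02 with length and GC trends removed). Atp2a3 was at 10.4 to 15.6 CPM in AllPrep and 6.65 to 11.9 CPM in TRIzol (0.42, adjusted p = 0.293). Atp2a1, the pump of fast skeletal muscle, had the most negative fitted value (-1.17 ± 0.97, adjusted p = 0.483). It had 0.57, 1.57 and 0.36 CPM in AllPrep and 0.27, 0.71 and 4.47 CPM in TRIzol, and without TRIzol replicate 3 the sign turned (0.72). Rabep2, whose exons overlap Atp2a1 on the opposite strand, had 296 to 450 counts in AllPrep and 359 to 409 in TRIzol.

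Sodium-calcium exchangers use the sodium gradient to expel calcium. Slc8a1 had 376, 346 and 483 CPM in AllPrep, against 254, 201 and 266 CPM in TRIzol. The lowest AllPrep library was above the highest TRIzol library. The log2 fold change was 0.74 ± 0.15 (SE, n = 3 each; edgeR adjusted p = 0.046), with a limma 95% interval of 0.38 to 1.09. It stayed positive when any 1 library was left out, at 0.59 to 0.84, while the call was lost each time (adjusted p of 0.063 to 0.113). With length and GC trends removed it was 0.31 (adjusted p = 0.166); at 18.5 kb, its longest annotated transcript is well past 8 kb.

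Slc8a2, the most abundant exchanger per kb and a largely neuronal one, had 248, 340 and 327 CPM in AllPrep and 335, 313 and 253 CPM in TRIzol. The ranges were nearly the same (0.02 ± 0.15, adjusted p = 0.942; limma 95% interval -0.33 to 0.37; -0.12 with the trends removed). Slc8a3 had 34.0 to 47.0 CPM in AllPrep and 36.8 to 42.9 CPM in TRIzol (0.08, adjusted p = 0.725). With the trends left in, Slc8a1 therefore made up 26.4%, 20.2% and 27.5% of exchanger CPM per kb in AllPrep and 16.2%, 13.8% and 20.4% in TRIzol, shares that overlapped slightly.

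**Figure D4:**
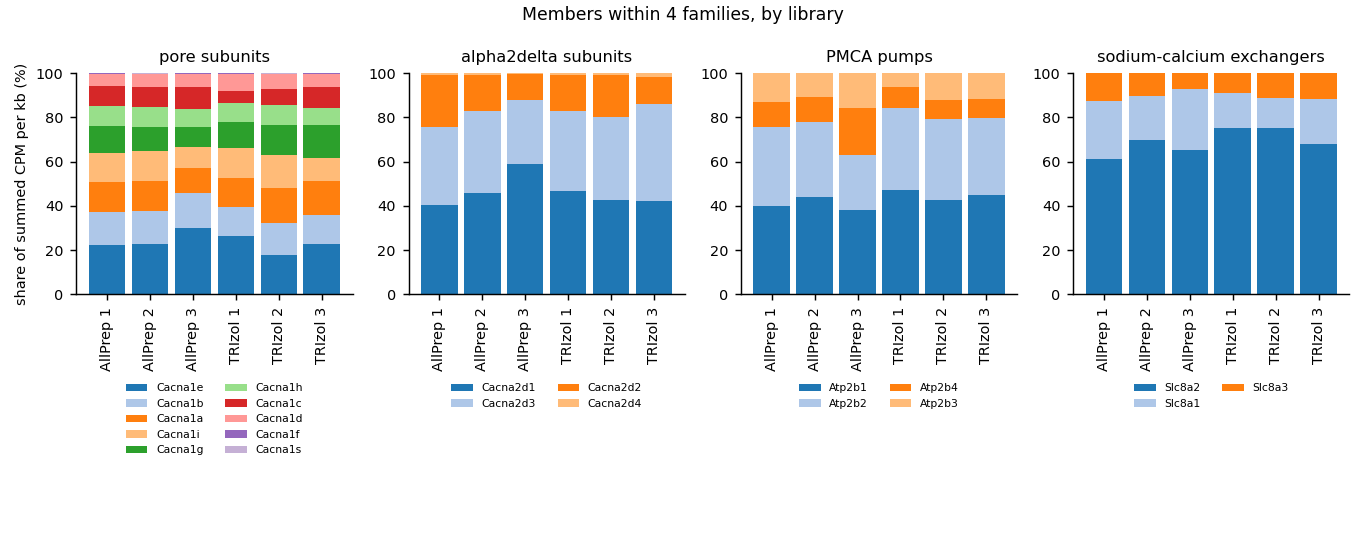
Share of each gene in its family's summed CPM per kb (y axis, %) in each library (x axis), for pore subunits, alpha2delta subunits, PMCA pumps and sodium-calcium exchangers. AllPrep replicate 3 stands out with 21.4% Atp2b4 among PMCA pumps and 58.9% Cacna2d1 among alpha2delta subunits. Length and GC trends were left in.

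Among 62 other genes that handle calcium, all tested, 2 were higher in AllPrep and none lower (edgeR, adjusted p below 0.05). These 2 are 3.23% of the 62, near the 2.52% of all tested genes called higher, and 38 had a positive log2 fold change (median 0.06). Slc24a4, a potassium-dependent sodium-calcium exchanger, had 33.8, 38.5 and 38.5 CPM in AllPrep, against 19.0, 24.5 and 20.8 CPM in TRIzol (0.79 ± 0.11, adjusted p = 0.026). Calb1, the cytosolic buffer calbindin, had 133, 148 and 183 CPM in AllPrep, against 102, 98.2 and 111 CPM in TRIzol (0.58 ± 0.12, adjusted p = 0.047). Neither gene overlapped between methods. Slc24a4 was still called with length and GC trends removed (0.70, edgeR adjusted p = 0.031), and Calb1 was not (0.61, adjusted p = 0.058). Leaving out any 1 library lost both calls, with adjusted p of 0.051 to 0.079 for Slc24a4 and 0.069 to 0.124 for Calb1.

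Stim1, the reticulum sensor that opens store-operated channels, had 104, 106 and 103 CPM in AllPrep and 75.8, 89.3 and 80.7 CPM in TRIzol, again without overlap (0.35 ± 0.08, adjusted p = 0.054). By group, the 13 channel partners had a median log2 fold change of 0.28, the 6 store-operated entry genes 0.20, the 5 potassium-dependent exchangers 0.39, the 18 store and release partners 0.04, the 8 mitochondrial calcium genes -0.02 and the 12 buffers and sensors -0.02. None of these medians was tested.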

How the data were processed

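Per the submitters' processing notes, the pipeline used the genome build GRCm39 and named STAR 2.7.9a, featureCounts, cutadapt, FastQC 0.11.9 and limma 3.60.6; whether counting used strand or read pairs was not given in the sources used. The authors deposited raw counts per gene in 1 table of 22692 rows; 94 IDs repeated with identical counts, and 108 rows were removed to leave 22584 genes. Even numbers made up 64.2% to 70.9% of counts between 1 and 20, and no value was changed for it. If both reads of a pair were counted, which the sources do not say, fragments would be fewer than the printed counts by up to a factor of 2. Without known strand counting, reads of genes whose exons overlap on opposite strands cannot be told apart: 6 members have such a partner in the table (Atp2a1, Cacna1d, Cacna1h, Cacnb4, Itpr3 and Ryr3).

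Counts were filtered with filterByExpr, scaled by TMM and tested with edgeR 4.0.16 (quasi-likelihood, two-sided, Benjamini-Hochberg over 16325 genes), with 3 libraries per method and no covariate. DESeq2 1.42.0 and limma 3.58.1 (prior count 2) were alternatives, as were other scalings and filters, halved counts, removal of length and GC trends (mgcv 1.9.3), a replicate block and leaving out each library. CPM values use the TMM-scaled library sizes; shares of counts use the plain totals. Lengths are of the longest GENCODE vM21 transcript, an annotation of GRCm38. Genes named with every library's value are the called ones and, for each role, the most abundant and the one with the largest fold difference; other members given library by library were added after their values were seen. Members and lists were chosen with earlier results of these data known.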

Additional observations from a re-analysis of the deposited data

How the results depend on the processing

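The 621 genes past the threshold became 2101 with DESeq2, 401 with length and GC trends removed, 236 with the replicate block, 50 with both the block and the trends removed, and 2 to 205 when 1 library was left out. For the members, the count of 2 became 9 with DESeq2, 6 without a filter on low counts and 4 with counts halved. Without the filter 521 of all 22584 tested genes were called higher and 223 lower. With counts halved these were 458 and 222 of 15312, against 412 and 209 of 16325 in the main comparison. The member count was 0 with length and GC trends removed, with or without the block, and 0 to 1 with 1 library left out. The 1 was Cacng5 without TRIzol replicate 3. The 2 calcium partners became 10 with DESeq2. Of these, Stac2, Stac3, Pvalb and Vsnl1 were lower in AllPrep (log2 fold changes of -0.60, -0.86, -0.97 and -0.38) and the others higher. Among all 16325 tested genes DESeq2 called 1275 higher and 826 lower. The partners called were 1 with length and GC trends removed, 1 with the replicate block, 0 with both, and 0 to 0 with 1 library left out. The members' median log2 fold change of 0.19 was 0.015 with length and GC trends removed, with or without the block, and 0.16 to 0.30 with 1 library left out. The cause of these shifts was not tested, other than that a fit without 1 library has fewer samples.

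Among the 41 tested members, 14 changed sign with length and GC trends removed, and 11 when some 1 library was left out; 33, all uncalled, moved by over 1.5 times without some 1 library. Of the 18 members named by rule, signs turned with length and GC trends removed, without and with the block, for Itpr1 (-0.091 and -0.078), Atp2b1 (-0.074 and -0.088), Atp2a2 (-0.024 and -0.027), Cacna1i (-0.12 and -0.11) and Ryr2 (-0.041 and -0.050), and for Cacng7 with library size alone (-0.021). With 1 library left out, of those 18, Atp2b1 ran between -0.056 and 0.16, Atp2a1 between -1.99 and 0.72, Cacnb4 between -0.22 and 0.010, and Cacng7 between -0.11 and 0.086. The other 9 that turned with the trends removed were Atp2b2, Cacna1a, Cacna1d, Cacna1g, Cacna1s, Itpr2, Ryr3, Slc8a2 and Slc8a3, and the other 7 that turned without 1 library were Atp2b2, Cacna1g, Cacna1s, Cacna2d4, Cacng2, Ryr1 and Slc8a2. None of these genes was called in the main comparison.

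Deviations of same-numbered libraries had correlations of -0.05, 0.01 and 0.16 over 16325 genes, where differently numbered ones ran from -0.167 to 0.198. With 3 libraries per method these values cannot show whether the numbers pair the samples, and the labels do not say what they mark. The replicate block is therefore given only here. It called Slc8a1 and Cacna1c among the members, and 195 of its 236 genes were higher in AllPrep (82.6%). Libraries of 1 method differed by at least 13.6 times the counting noise (chi-square per degree of freedom over all genes). Abundant genes weigh most in this value, so for them the spread between libraries, more than depth, limits the comparisons. Counting both reads of a pair would raise it. It does not settle which limit holds for members with few counts, such as Cacna1f, Cacna1s and Cacng6 (8 to 55 per library). Cacng1, with 2 to 8 counts, is limited by depth.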
